A study of Mus musculus with 6 samples.

Results

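The mevalonate pathway turns acetyl-CoA into the isoprene units from which cells build cholesterol, the lipid anchors of small GTPases, dolichol and the tail of ubiquinone. The 8 genes described here encode enzymes of that route and were found in the tables by gene symbol: Acat2, Hmgcs1, Mvk, Pmvk, Mvd, Idi1, Fdps and Ggps1. They are not every enzyme of the route. All 8 were found among the 16775 genes of the deposited tables, and all 8 were among the 11898 genes compared, whose CPM (the scaled count relative to library size) reached 1 in 1 or more libraries.

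The cells were bone-marrow-derived macrophages of C57BL/6 mice, made by culture for 5 days with 10 ng/ml of the growth factor M-CSF in medium with 10% FBS. Treatment then lasted 24 hours. One library came from cells given IL4 alone, the cytokine that drives alternative activation. The other 5 came from cells given IL4 plus fatostatin, betulin, 25-HC, PF429424 or 1,10-Phen. All 6 libraries therefore share IL4, and the labels state neither doses, nor a vehicle, nor how many mice were used. Background knowledge holds that fatostatin and betulin block SREBP processing, and no target is assumed here for the other compounds.

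SREBP2 is the transcription factor best known for switching on this pathway when sterols in the endoplasmic reticulum run low, and sterols in turn hold it back by keeping its precursor out of the Golgi. In macrophages the same route feeds membrane growth and the prenylation of Rab and other small GTPases. Acat2 and Hmgcs1 act at its entry, Mvk, Pmvk and Mvd turn mevalonate into isopentenyl diphosphate, and Idi1, Fdps and Ggps1 build isoprenoids from it.

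Each treatment had 1 library, so differences between libraries could not be set against a spread between cultures, and p-values are not reported. Each ratio compares 2 libraries, not 2 conditions, and its 95% interval (exact Clopper-Pearson) covers counting error only. The libraries held 20181396 to 21169667 estimated counts, and 3 counts correspond to 0.137 to 0.161 CPM after scaling. Ratios are log2 values of compound over IL4, with TMM scaling and a prior count of 2. A gene was counted as lower or higher at 2-fold (a log2 ratio of 1 in size), or at the smaller size (a log2 ratio of 0.32), when its ratio reached that size and its interval excluded no change. Levels are in FPKM, which is per transcript length and can be compared between genes. FPKM carries no TMM scaling, so its differences between libraries are not those of the ratios.

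The labelled cell type was checked against 10 macrophage markers, none of which was at 0 in any library. Csf1r ranged from 257 to 563 FPKM and Cd68 from 1164 to 1866 FPKM. The list was not level: its median ratio was 0.08 with fatostatin, -0.28 with betulin, -0.53 with 25-HC, -0.49 with PF429424 and -0.46 with 1,10-Phen. Mertk, at 21.35 FPKM with IL4, was at 2.58 with 1,10-Phen, and Aif1, at 12.66, was at 1.02. The summed level of 5 T and B cell markers was 0.17 to 1.27 FPKM, and that of 8 stromal markers was 7.42 to 21.5 FPKM, with Lum at 0 in 3 libraries. The 10 neutrophil markers summed to 318 FPKM with IL4 alone and to 48.7 to 482 FPKM with the compounds, and the 4 dendritic cell markers to 78 to 387 FPKM, nearly all of it Itgax. The 6 markers of dividing cells differed most: they summed to 212 FPKM with IL4, 162 with betulin, 137 with fatostatin, 106 with 25-HC, 75 with PF429424 and 5.1 with 1,10-Phen. No marker of the neutrophil, dendritic and dividing cell lists was at 0 in any library. In bulk RNA, fewer cells of a type and less RNA per cell cannot be told apart.

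The bases upstream of the start sites were read as a description of sequence. Whether they bear on the lower levels of 7 of the 8 genes in the 1,10-Phen library was not tested. The 3 stretches below are shown, with the strand of the gene, on GRCm38. Hmgcs1 was taken because it alone of the genes matched held the sterol element. Mvk was taken because its stretch lies between Mvk and Mmab, a pair of genes that diverge. Mvd was taken because it differed between the 25-HC and PF429424 libraries. The stretches exclude bases inside annotated UTRs and genes, except that the Mvd stretch lies within the span of Gm20388, on the opposite strand. Capitals mark the sterol regulatory element TCACNCCAC, the GC box GGGCGG and the CCAAT box, each searched on both strands, with no overlaps. The Hmgcs1 stretch is chr13:119690101-119690350 (plus strand), the Mvk stretch chr5:114444074-114444263 (plus strand) and the Mvd stretch chr8:122443423-122443655 (minus strand).
Hmgcs1: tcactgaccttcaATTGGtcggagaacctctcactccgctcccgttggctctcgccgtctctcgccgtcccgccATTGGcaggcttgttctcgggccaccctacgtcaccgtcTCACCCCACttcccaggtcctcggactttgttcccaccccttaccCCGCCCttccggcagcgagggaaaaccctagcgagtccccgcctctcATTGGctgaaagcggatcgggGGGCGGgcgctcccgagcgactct
Mvk: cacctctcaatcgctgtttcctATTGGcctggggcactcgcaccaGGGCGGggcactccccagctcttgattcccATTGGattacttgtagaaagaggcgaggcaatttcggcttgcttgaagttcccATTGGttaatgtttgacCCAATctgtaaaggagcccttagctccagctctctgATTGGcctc
Mvd: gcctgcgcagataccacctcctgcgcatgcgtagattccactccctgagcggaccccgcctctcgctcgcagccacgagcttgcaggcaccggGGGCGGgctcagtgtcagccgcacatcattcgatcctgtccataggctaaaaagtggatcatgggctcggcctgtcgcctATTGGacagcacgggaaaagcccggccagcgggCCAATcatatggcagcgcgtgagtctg
The Hmgcs1 stretch shows TCACCCCAC at positions -137 to -129 before the start. CCAAT boxes stand at 3 places in Hmgcs1, at 5 in Mvk and at 2 in Mvd.

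Sequences of RefSeq on GRCm38.p6 covered 7 of the 8 genes with 8 start sites, and Fdps was not matched. Within 250 bases upstream, the sterol element was found for 1 of the 7 (Hmgcs1), against 1.05% of 32851 promoters. The CCAAT box was found for 6 of 7, all but Acat2, against 33.8%. The GC box was found for 5 of 7 (Acat2, Hmgcs1, Mvk, Mvd and Idi1), against 32.7%, and the E-box CACGTG for 0 of 7, against 6.02%. These searches took all 250 bases, without leaving out UTR or gene bases. Every match of Idi1 and Ggps1 lies in bases that such a cut leaves out. These are matches of letters, not measured binding sites.

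Acat2 (NCBI Gene ID 110460) encodes the cytosolic thiolase that joins a pair of acetyl-CoA molecules. It lies at chr17:12943042-12960725 on the minus strand in the annotation, while the deposited tables list the plus strand. Its level was 3.44 FPKM with IL4, 2.86 with fatostatin, 3.21 with betulin, 2.49 with 25-HC, 2.34 with PF429424 and 1.01 with 1,10-Phen, from 144, 123, 140, 109, 102 and 44 counts. The 1,10-Phen library was lowest, and its step below 25-HC, the next library, exceeded counting error (1.04, interval 0.56 to 1.61), while no other step in the order did. The ratio to IL4 was -1.47 with 1,10-Phen (-2.03 to -1.01), -0.43 with 25-HC (-0.81 to -0.07) and -0.41 with PF429424 (-0.8 to -0.04). Intervals for fatostatin (-0.21) and betulin (-0.03) included no change. Acat3, a paralog of Acat2, had 2 to 20 counts, and the sources used here do not say how reads were divided between them.

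Hmgcs1 (NCBI Gene ID 208715) encodes the cytosolic synthase that adds a further acetyl-CoA. It lies at chr13:119690351-119708260 (plus strand), and an antisense gene, Gm48342, overlaps it and is not analysed here. Its level was 15 FPKM with IL4, 16.08 with fatostatin, 15.07 with betulin, 12.66 with 25-HC, 12.34 with PF429424 and 9.26 with 1,10-Phen, from 1061, 1168, 1109, 936, 909 and 675 counts. Among the 7 genes that were lower in the 1,10-Phen library it moved least, at -0.45 (-0.59 to -0.31), or -0.69 with library totals. The fatostatin ratio of 0.15 (0.03 to 0.27), the 25-HC ratio of -0.21 (-0.34 to -0.09) and the PF429424 ratio of -0.14 (-0.27 to -0.01) stayed under the smaller size. With 1061 counts in the IL4 library it was the most deeply counted of the 8.

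Mvk (NCBI Gene ID 17855) encodes mevalonate kinase. It lies at chr5:114444264-114460591 (plus strand), head to head with Mmab, which codes for an enzyme of vitamin B12 metabolism and whose start is 209 bases away. Its level was 4.89 FPKM with IL4, 4.51 with fatostatin, 3.98 with betulin, 3.24 with 25-HC, 3.77 with PF429424 and 2.12 with 1,10-Phen, from 168, 160, 142, 116, 135 and 75 counts. The ratio was -0.95 with 1,10-Phen (-1.37 to -0.56) and -0.56 with 25-HC (-0.92 to -0.22), and the other 3 intervals included no change. No single step between libraries next to each other in the order exceeded counting error. Mmab, across the shared upstream stretch printed above, had 199 counts with IL4, 276 with fatostatin, 172 with betulin, 182 with 25-HC, 195 with PF429424 and 162 with 1,10-Phen. Its ratio was 0.48 with fatostatin and -0.09 with 1,10-Phen, so it did not follow Mvk in either library.

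Pmvk (NCBI Gene ID 68603) encodes phosphomevalonate kinase, which adds a further phosphate. It lies at chr3:89454541-89469014 (plus strand). Its level was 7.07 FPKM with IL4, 6.53 with fatostatin, 6.59 with betulin, 5.52 with 25-HC, 5.28 with PF429424 and 3.78 with 1,10-Phen, from 167, 159, 162, 137, 130 and 92 counts. Only the 1,10-Phen ratio, -0.65 (-1.04 to -0.28), had an interval that excluded no change. The ratios of -0.31 with 25-HC (-0.65 to 0.02) and -0.28 with PF429424 (-0.62 to 0.06) had intervals that included no change. The scaling decided this: with library totals Pmvk was counted as lower at the smaller size with both compounds, and with DESeq2 size factors with 25-HC.

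Mvd (NCBI Gene ID 192156) encodes the decarboxylase that yields isopentenyl diphosphate. It lies at chr8:122433596-122443422 (minus strand), within the span of Gm20388 on the opposite strand, which is not analysed here. Its level was 11.16 FPKM with IL4, 10.13 with fatostatin, 10.95 with betulin, 11.26 with 25-HC, 6.15 with PF429424 and 4.09 with 1,10-Phen, from 395, 369, 403, 418, 227 and 149 counts. The first 4 libraries lay close together, with no step between them beyond counting error. PF429424 lay below fatostatin by 0.63 (0.39 to 0.88) and 1,10-Phen below PF429424 by 0.48 (0.18 to 0.79). Against IL4 the ratio was -0.71 with PF429424 (-0.96 to -0.48) and -1.2 with 1,10-Phen (-1.49 to -0.93). With 25-HC it was 0.05 (-0.15 to 0.25), where Acat2, Mvk and Fdps were lower.

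Idi1 (NCBI Gene ID 319554) encodes the isomerase that makes dimethylallyl diphosphate. It lies at chr13:8885606-8892396 (plus strand), and Gm48574, on the opposite strand, overlaps its first bases and is not analysed here. The deposited start of Idi1, 8884914, is that of Gm48574 in GENCODE vM21. Its level was 1.72 FPKM with IL4, 1.72 with fatostatin, 1.49 with betulin, 1.38 with 25-HC, 1.34 with PF429424 and 0.24 with 1,10-Phen, from 100, 103, 90, 84, 81 and 14 counts. The other 5 libraries lay within counting error of their neighbours, and the 1,10-Phen library lay 2.21 below the next (1.52 to 3.28). Its ratio to IL4, -2.49 (-3.56 to -1.82), was 5.62-fold lower and the furthest from 0 of the 40 ratios. It also had the widest interval, from 14 counts, and on log2(FPKM + 1), which compresses low levels, it was -1.13.

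Fdps (NCBI Gene ID 110196) encodes farnesyl diphosphate synthase, whose product feeds both sterols and prenyl groups. It lies at chr3:89093588-89101967 (minus strand), and Gm43738, on the same strand, overlaps most of it and is not analysed here. Its level was 16 FPKM with IL4, 16.19 with fatostatin, 20.2 with betulin, 10.89 with 25-HC, 10.5 with PF429424 and 4.19 with 1,10-Phen, from 403, 416, 528, 285, 273 and 111 counts. The libraries fell into 4 levels: betulin highest, fatostatin and IL4 together, PF429424 and 25-HC together, and 1,10-Phen lowest, with each gap beyond counting error. The ratio was 0.4 with betulin (0.21 to 0.59), -0.53 with 25-HC (-0.76 to -0.31), -0.48 with PF429424 (-0.71 to -0.26) and -1.64 with 1,10-Phen (-1.97 to -1.35).

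Ggps1 (NCBI Gene ID 14593) encodes geranylgeranyl diphosphate synthase, whose product anchors Rab and other small GTPases. It lies at chr13:14049790-14063566 (minus strand), with 16 transcripts in the tables. Its level was 9 FPKM with IL4, 7.28 with fatostatin, 8.27 with betulin, 11.77 with 25-HC, 9.27 with PF429424 and 9.96 with 1,10-Phen, from 603, 531, 585, 824, 642 and 695 counts. It was the only one of the 8 that was higher than in the IL4 library with 25-HC, at 0.42 (0.26 to 0.57), and with 1,10-Phen, at 0.41 (0.25 to 0.57), by the rule for the smaller size. The 1,10-Phen value rests on the scaling: with library totals it was 0.16, and on log2(FPKM + 1) 0.13, both under the smaller size. The 25-HC value was 0.38 with library totals. Arid4b, a chromatin protein gene on the opposite strand, overlaps Ggps1 by 257 bases in GENCODE vM21. It had 747 counts with IL4, 758 with fatostatin, 689 with betulin, 937 with 25-HC, 605 with PF429424 and 948 with 1,10-Phen, with ratios of 0.29 with 25-HC, -0.22 with PF429424 and 0.54 with 1,10-Phen. The strand setting of the counting is not given, so reads of the 2 genes in the overlap cannot be told apart.

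**Figure D1:**
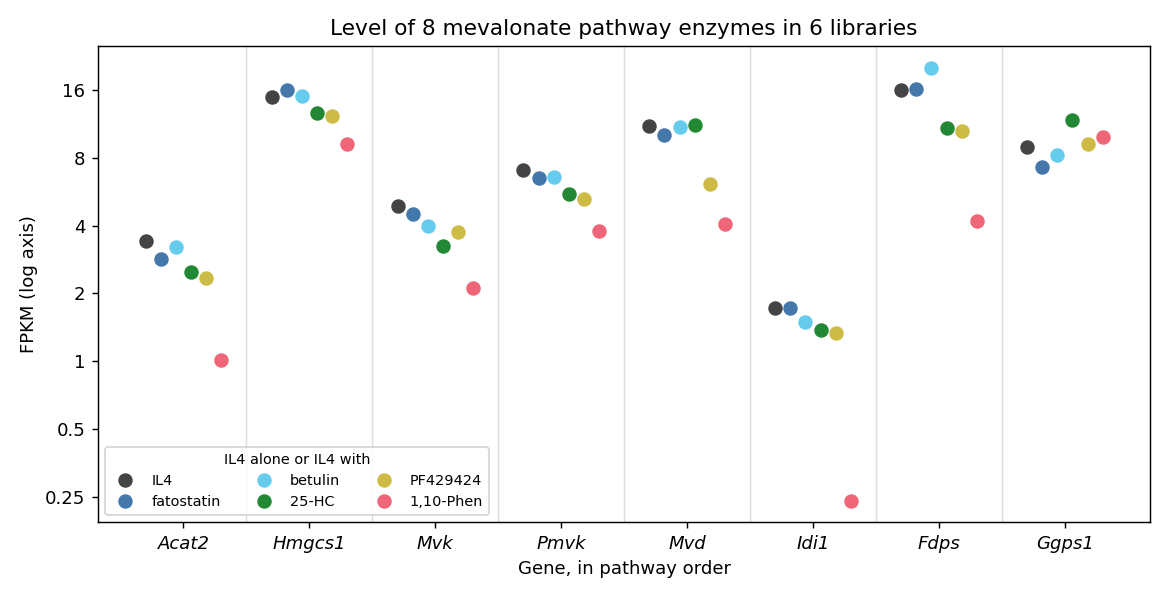
Level of each enzyme gene (FPKM, log axis) in each of the 6 libraries, in pathway order, 1 point per library. The 1,10-Phen point is lowest for every gene but Ggps1, and Idi1 reaches 0.24 FPKM there.

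With fatostatin, the 8 genes stayed near the IL4 library. Ratios ran from -0.21 (Acat2) to 0.15 (Hmgcs1) with a median of -0.05, against 0.01 over all genes. None of the 8 was lower or higher at 2-fold, where 1.06% of all genes were lower and 0.874% higher, and none at the smaller size, where 6.86% were lower and 6.46% higher. With library totals in place of TMM the shares over all genes at the smaller size were 9.13% and 4.74%, and still none of the 8. All 6 dividing cell markers were lower at the smaller size in this library (median -0.59). Of 10 neutrophil markers 5 were higher at that size (median 0.34) and 1, Cxcr2, was lower (-0.66). The part of these lists in the result was not tested.

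With betulin, Fdps was higher and the rest stayed near IL4. The median was -0.03, against 0.006 over all genes, and ratios ran from -0.23 (Mvk) to 0.4 (Fdps). At 2-fold none of the 8 was counted, where 2.29% of all genes were lower and 1.91% higher. At the smaller size 1 of 8 was higher and none lower, where 12.7% were higher and 13.2% lower. With library totals these shares were 9.61% and 16.9%, and Fdps was again the 1 gene counted. Of the 6 dividing cell markers, 4 were lower at the smaller size (median -0.37). Of 10 macrophage markers 4 were lower and 1 higher at that size (median -0.28). Of 5 stromal markers compared 3 were lower at 2-fold (median -1.32). Of 10 neutrophil markers 6 were higher at the smaller size (median 0.5) and 2 were lower, Csf3r (-1.12) and Cxcr2 (-0.53). The part of these lists was not tested.

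With 25-HC, 3 of the 8 (Acat2, Mvk and Fdps) were lower and Ggps1 was higher at the smaller size. Over all genes 21.3% were lower and 20.7% higher at that size. With library totals 4 of 8 were lower, Pmvk added, where 23.1% of all genes were lower, and with DESeq2 size factors the same 4, where 22.4% were. At 2-fold none was counted, where 5.69% were lower and 3.27% higher. The median was -0.3, against 0.007 over all genes (-0.1 for the summed counts of the 8, and -0.13 against the median of the 6 libraries in place of IL4), and 6 of the 8 ratios were below 0, against 49.3% of all genes. All 6 dividing cell markers were lower at the smaller size and 2 at 2-fold (median -0.97). Of 10 macrophage markers 3 were lower at 2-fold (median -0.53) and 1, Cd14, was higher (1.48). At the smaller size 3 of 5 stromal markers were lower (median -0.61). Of 10 neutrophil markers 6 were higher at that size (median 0.43) and 1, Csf3r, was lower (-1.56). What part these lists had was not tested.

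With PF429424, 3 of the 8 (Acat2, Mvd and Fdps) were lower at the smaller size and none higher, where 18.4% of all genes were lower and 17.9% higher. At 2-fold none was counted, where 5.63% were lower and 2.49% higher. The median was -0.25, against 0.023 over all genes, or -0.39 with library totals and -0.09 against the median of the 6 libraries in place of IL4, and 7 of 8 ratios were below 0, against 47.7%. With library totals, which moved the median of all genes to -0.113, 5 of 8 were lower at the smaller size, with Mvk and Pmvk added, where 26.4% of all genes were lower and 10.9% higher, and the 2-fold shares were 7.32% and 1.82%. All 6 dividing cell markers were lower at 2-fold (median -1.38), and so were 7 of 10 neutrophil markers (median -1.7). At 2-fold 2 of 10 macrophage markers (median -0.49) and 2 of 5 stromal markers (median -0.8) were lower too. At the smaller size 1 macrophage marker was higher. The part of these lists in the result was not tested.

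With 1,10-Phen, 7 of the 8 were lower at the smaller size, all but Ggps1, and 4 were lower at 2-fold: Acat2, Mvd, Idi1 and Fdps. Over all genes 28.9% were lower and 26% higher at the smaller size, and 11.8% lower and 7.59% higher at 2-fold. The median was -1.07, against -0.015 over all genes. The sum of the 8 genes' counts, which Hmgcs1 and Ggps1 dominate, gave a smaller ratio of -0.51. With library totals the median of all genes moved to -0.254, 5 of 8 were lower at 2-fold, with Mvk added, and none was higher. The shares over all genes were then 42.7% lower and 15.1% higher at the smaller size, and 16.3% and 5.39% at 2-fold. All 6 dividing cell markers were lower at 2-fold, with a median of -5.42, and Mki67 went from 12269 counts to 94. Of the 10 neutrophil markers 8 were lower at 2-fold (median -2.96), and so were 3 of 10 macrophage markers (median -0.46). At the smaller size 1 neutrophil marker and 1 macrophage marker, Cd14 (0.94), were higher. Of 3 dendritic markers compared 2 were lower at 2-fold, with Itgax at 77.56 FPKM against 279.71, and Xcr1 was at 0.34. Whether these differences had a part in the lower levels of the 7 enzymes was not tested.

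**Figure D2:**
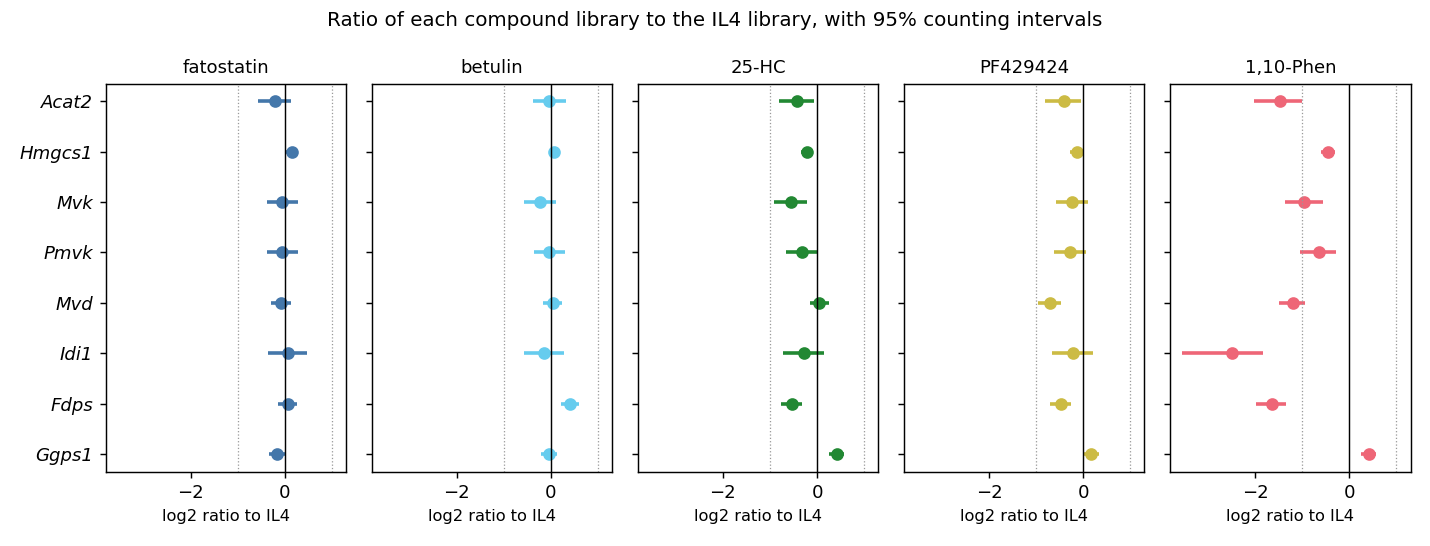
Log2 ratio of each enzyme gene to the IL4 library, 1 panel per compound; points are ratios, bars 95% counting intervals, and dotted lines mark 2-fold. The 1,10-Phen panel holds 7 points left of 0, down to -2.49 for Idi1, and Ggps1 at 0.41.

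The make-up of the pathway transcripts shifted along with their sum. The 8 genes summed to 68.3 FPKM with IL4, 65.3 with fatostatin, 69.8 with betulin, 59.2 with 25-HC, 51 with PF429424 and 34.7 with 1,10-Phen. These sums carry no TMM scaling. On library totals the median of all genes was itself at -0.254 with 1,10-Phen and -0.113 with PF429424. The summed counts of the 8, scaled with TMM, gave log2 ratios of -0.51 and -0.2 there. The shares within a library do not depend on that scaling. Ggps1 made up 13.2% of the sum with IL4 and ranked 4 among the 8, and 28.7% with 1,10-Phen, where it ranked 1. Its share was 19.9% with 25-HC and 18.2% with PF429424. Fdps went from 23.4% with IL4 to 12.1% with 1,10-Phen and reached 29% with betulin, and Idi1 went from 2.52% to 0.693%. Pmvk stayed between 9.32% and 10.9% in all 6 libraries.

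**Figure D3:**
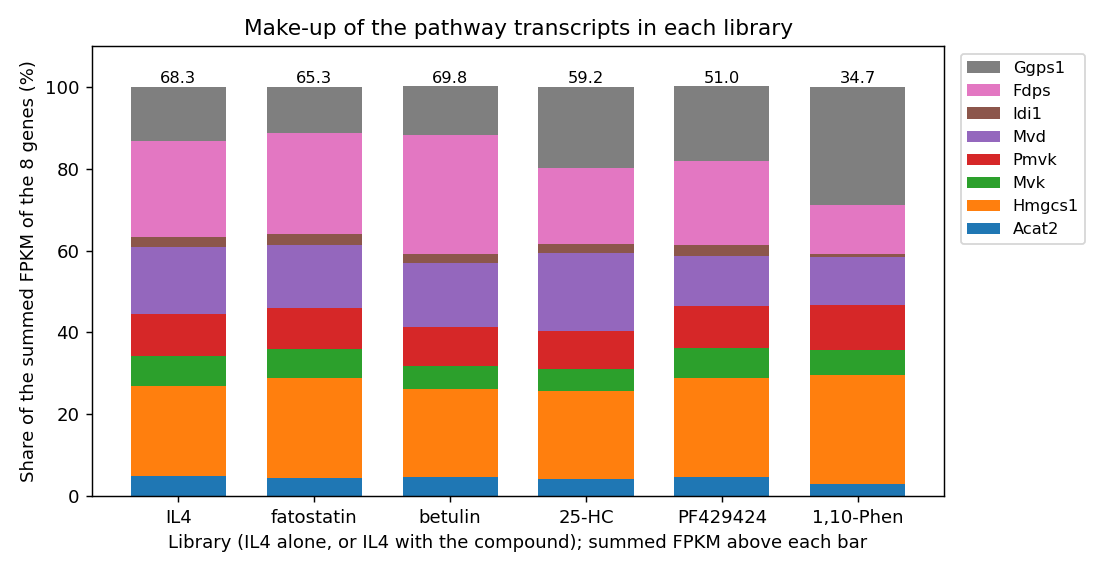
Share of each enzyme gene in the summed FPKM of the 8 genes (%), 1 bar per library, with the sum above each bar. The Ggps1 segment widens from 13.2% with IL4 to 28.7% with 1,10-Phen while the sum drops from 68.3 to 34.7 FPKM. The sums carry no TMM scaling.

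A ratio between genes within a library does not depend on how libraries are scaled. Ggps1 over Fdps, the enzymes of consecutive steps, was 0.562 in FPKM with IL4, 0.45 with fatostatin, 0.409 with betulin, 1.08 with 25-HC, 0.883 with PF429424 and 2.38 with 1,10-Phen. The 3 libraries with 25-HC, PF429424 and 1,10-Phen stood above IL4, and betulin stood below it. On counts the log2 change against IL4 was 0.95 with 25-HC (0.68 to 1.22), 0.65 with PF429424 (0.37 to 0.93), 2.06 with 1,10-Phen (1.72 to 2.42) and -0.43 with betulin (-0.69 to -0.18). For fatostatin the interval included no change (-0.23, from -0.49 to 0.04). Mvd over Fdps changed by 0.58 with 25-HC (0.28 to 0.88) but by -0.24 with PF429424 (-0.57 to 0.1). Idi1 over Hmgcs1 changed by -2.18 with 1,10-Phen (-3.12 to -1.35).

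Compound libraries were also set against each other over 10 pairs, at doses that are not known and so may not match. All values below are ratios between 2 libraries with counting intervals and no test. Beyond counting error means here that the interval excludes no change, whatever the size of the ratio. The share of all genes that differ so was not counted for these pairs. Whether the 8 stand out from other genes is therefore not known. Between fatostatin and betulin the median of the 8 was 0.07, against 0.007 over all genes. Of the 8 only Fdps differed beyond counting error, higher with betulin by 0.34 (0.15 to 0.53). Between PF429424 and 25-HC the median was 0.04, against 0.002 over all genes. Mvd (-0.76, from -1.01 to -0.53) and Ggps1 (-0.25, from -0.4 to -0.1) were lower with PF429424. Fdps was lower than with betulin both with 25-HC (-0.93, from -1.14 to -0.72) and with PF429424 (-0.88, from -1.1 to -0.67). For 1,10-Phen the medians were -1 against fatostatin, -0.97 against betulin, -0.72 against 25-HC and -0.6 against PF429424. Idi1 was the lowest gene in all 4 pairs.

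Across the 6 libraries the centred log2 CPM of 7 genes followed the mean of the other members, with Pearson's r from 0.87 (Mvd) to 0.99 (Acat2), and Ggps1 ran the other way at -0.76. The 1,10-Phen library carries much of this: over the other 5 libraries r was 0.44 for Mvd and 0.51 for Mvk, 0.92 for Acat2, 0.96 for Pmvk and -0.84 for Ggps1. The mean profile was 0.27 with IL4, 0.27 with betulin, 0.23 with fatostatin, 0.04 with 25-HC, -0.02 with PF429424 and -0.79 with 1,10-Phen. The summed dividing cell markers ranked the compound libraries in that same order. The median ratios of the 8 put 25-HC (-0.3) below PF429424 (-0.25) instead. Whether dividing cells had a part was not tested. Of 5084 genes ranked by their correlation with the mean profile of the 8, the 10 most alike were Lmnb2, Nucks1, Stmn1, Pola2, Dhrs4, Bcat2, Dhx9, Pkmyt1, Kif23 and Timeless, with r from 0.995 to 1 over 6 libraries and 0.95 to 1 without 1,10-Phen. Their log2 ratios with 1,10-Phen ran from -0.79 (Dhx9) to -4.27 (Stmn1). These correlations describe 6 libraries that share 1 scaling and carry no test.

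Downstream of the enzymes, 14 genes of the sterol branch were compared, which convert farnesyl diphosphate into cholesterol. With 1,10-Phen 8 were lower and 1 higher at the smaller size, where 28.9% and 26% of all genes were, with a median of -0.47. Lbr, which reduces sterols, had a ratio of -1.6 there, Cyp51, a lanosterol demethylase, -1.5 and Nsdhl, a sterol dehydrogenase, -1.06. Sqle, the epoxidase that commits squalene to sterols, went the other way at 1.01 (0.8 to 1.23), from 277 to 487 counts. Fdft1, which makes squalene from the product of Fdps, was at -0.1 (-0.39 to 0.19), beside Fdps at -1.64. With 25-HC 6 of 14 were lower at the smaller size (21.3% of all genes), with Dhcr7, a sterol reductase, at -0.73 and Cyp51 at -0.58, and the median was -0.36. With PF429424 5 were lower at the smaller size (18.4% of all genes), with Lbr at -0.97 and Cyp51 at -0.62, and the median was -0.17. With fatostatin 2 were lower and 1 (Dhcr7, 0.38) higher, where 6.86% and 6.46% of all genes were, and with betulin 1 was lower, a share below the 13.2% of all genes, both at the smaller size with medians of -0.06.

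Of 13 genes for SREBP handling and sterol uptake 12 were compared, and they did not follow the enzymes in the 1,10-Phen library. There 6 were higher and 2 lower at the smaller size, where 26% and 28.9% of all genes were, with a median of 0.4 against -1.07 for the enzymes. Srebf2, which encodes SREBP2, was at -0.08, Scap, the escort of SREBP, at 0.64, and Insig1, which holds Scap back, at -0.75. Stard4, a sterol carrier, was at -2.13. With 25-HC 3 were lower and 2 higher at the smaller size, near the 21.3% and 20.7% of all genes, among them Stard4 (-1.51), Srebf2 (-0.39) and Mylip (1.73), a ubiquitin ligase. With PF429424 4 were lower and 2 higher, where 18.4% and 17.9% of all genes were, among them Stard4 (-1.85), Mylip (-1.21) and Srebf2 (-0.48). With fatostatin 1 and with betulin 2 of the 12 were lower at the smaller size and none higher, where 6.86% and 13.2% of all genes were lower, with Stard4 at -0.4 and -0.42.

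Another 19 genes act downstream of farnesyl and geranylgeranyl diphosphate, in protein prenylation, dolichol and ubiquinone synthesis. None of them was counted at 2-fold in any comparison, where 1.06% to 11.8% of all genes were lower and 0.874% to 7.59% higher. At the smaller size 5 were lower and 4 higher with 1,10-Phen, none lower and 6 higher with PF429424, none lower and 3 higher with 25-HC, none lower and 2 higher with betulin, and 1 each way with fatostatin. The counts with 1,10-Phen lie below the shares of all genes, 28.9% lower and 26% higher, and the 6 with PF429424 stand beside 17.9%. Of all genes 20.7% were higher with 25-HC and 12.7% with betulin, and with fatostatin 6.86% were lower and 6.46% higher. Rabggta, a subunit of the enzyme that puts geranylgeranyl groups on Rab proteins, was at 0.3, 0.48, 0.54, 0.58 and 0.79 with fatostatin, betulin, 25-HC, PF429424 and 1,10-Phen. Those 5 values share the IL4 library. Beside the 0.79 of Rabggta with 1,10-Phen, Ggps1 was at 0.41 (0.16 with library totals) and Fdps at -1.64. Rabggta does not stand for the list there. The 5 genes that were lower were Dhdds (-0.48), Zmpste24 (-0.46), Pdss2 (-0.44), Pggt1b (-0.41) and Icmt (-0.36), and the list median was 0.02.

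A further 5 genes make, carry or use acetyl-CoA outside the pathway. Acaca, the carboxylase that diverts it to fatty acids, was at 1.29 with 25-HC, opposite in sign to Acat2 and Hmgcs1, and at -0.74 (-0.91 to -0.57) with 1,10-Phen, where both were lower too. Acss2, which makes acetyl-CoA from acetate, was at 1.31 with 1,10-Phen. Among 7 measured mitochondrial and paralogous counterparts, 4 were compared. Acat1, the mitochondrial thiolase, was at -1.06 with 25-HC, -0.65 with PF429424 and -0.82 with 1,10-Phen, and Oxct1, which uses ketone bodies, at -1.08, -0.67 and -1.57. With 25-HC the mitochondrial thiolase thus stood lower against IL4 than Acat2, the cytosolic one, at -0.43. Idi2, the paralog of Idi1, had 0 or 1 count in each library.

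**Figure D4:**
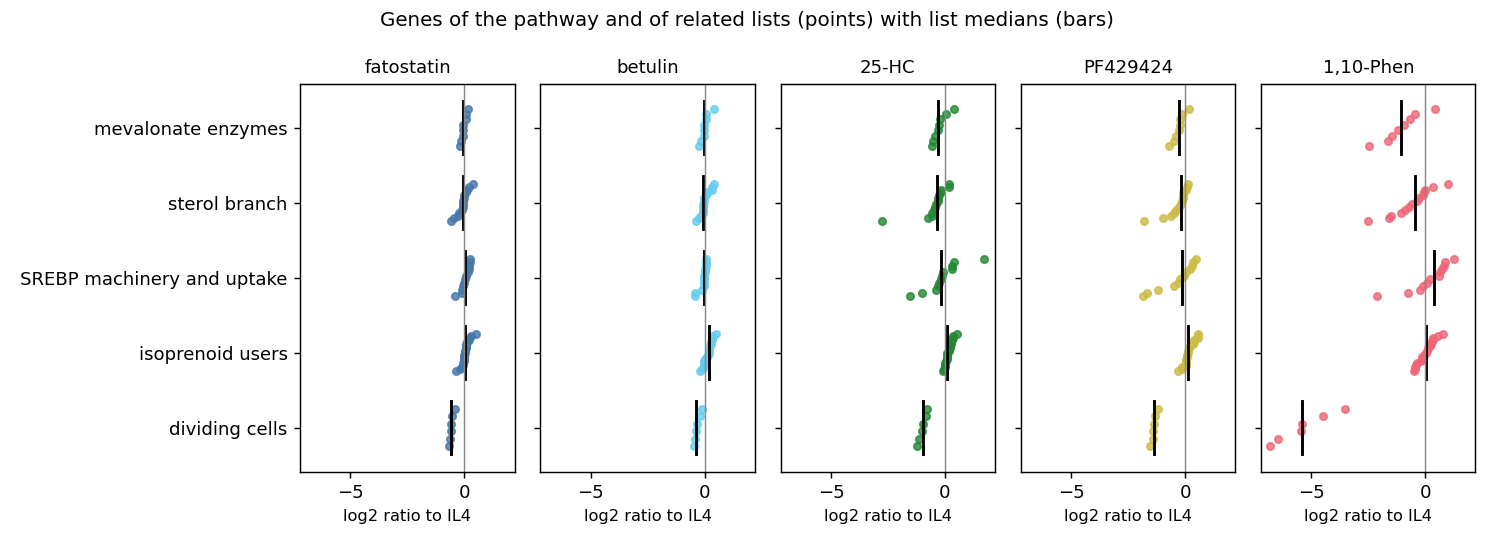
Log2 ratio to the IL4 library of the 8 enzyme genes and of the genes of related lists, 1 panel per compound; points are genes and bars list medians. In the 1,10-Phen panel the enzyme median lies at -1.07, the sterol branch at -0.47, SREBP machinery and uptake at 0.4 and the dividing cell markers at -5.42.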

How the data were processed

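RNA sequencing data of 6 libraries were used, 1 per treatment, grouped by the labels. Per the file headers, the deposited values are an estimated count per gene, not scaled between libraries, and FPKM, which the authors scaled by transcript length and library size. HISAT2, Bowtie2, RSEM 1.2.12 and DESeq2 are named in the submitters' processing notes, without the step each served; the sources used here give no strand setting. Positions are from RefSeq on GRCm38, since most deposited coordinates carry only 3 digits.

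Estimated counts were rounded to whole numbers and scaled with TMM factors (0.900 to 1.06; edgeR 4.0.16 in R 4.3.3). Genes were compared where CPM on library totals reached 1 in 1 or more libraries. With 1 library per treatment no test was run, and ratios and intervals were tested on simulated data. Motifs were searched in 250 bases upstream. Alternatives were DESeq2 1.42.0 size factors, library totals, prior counts of 0.5 and 10, log2(FPKM + 1), log2(FPKM + 0.1), other CPM filters, the median of the 6 libraries as reference, and means or summed counts over members. Python 3.11.15, numpy 2.4.6, pandas 2.3.3, SciPy 1.17.1 and matplotlib 3.10.9 were used.

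The 8 members and all lists were chosen with earlier results of these data known. Genes named were the 8 members; per list and comparison, up to 4 with the ratios furthest from 0, given a CPM of 5 or more; genes fixed for every comparison, among them Srebf2, Insig1, Stard4, Fdft1 and Sqle; neighbours overlapping a member or starting within 1 kb; and the 10 genes most alike, given a CPM of 5 or more in every library and an SD of at least 0.2. Some genes that this rule names are not reported here, and Scap was named after its value was seen.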

Additional observations from a re-analysis of the deposited data

How the results depend on the processing

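Of 280 ratios of single enzymes recomputed under alternatives, 267 stayed within the spread set by counting and 13 moved further; 9 changed sign, all with a size of 0.21 or less against IL4 and none counted as lower or higher; 112 of 112 alternatives of ratios of at least the smaller size (0.32 on the log2 scale) kept their sign. With 1,10-Phen the median of the 8 was -1.07 and the summed counts gave -0.51; against the median of the 6 libraries in place of IL4 the medians were 0.14 with fatostatin, 0.11 with betulin, -0.13 with 25-HC and -0.09 with PF429424; Idi1 was -1.13 on log2(FPKM + 1), against -2.49. The number of genes past 2-fold depended on the filter: for fatostatin it was 230, 348 with no filter and 106 with a CPM of at least 5; for betulin 499 and 284 with a CPM of at least 5; for PF429424 966 and 639 with that filter. Depth limits Idi1 most, with 14 counts in its lowest library. No paired analysis was possible because each treatment had 1 library, so none could be left out either.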
